A study of Mus musculus with 4 samples.

Results

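The Hox genes and the limb identity factors Pitx1, Tbx4 and Tbx5 were followed in mouse satellite cells in culture. Satellite cells are muscle's own stem cells. Members were taken by name from the deposited table: every row whose symbol is Hox, a cluster letter from a to d and a number, plus Pitx1, Tbx4 and Tbx5. That gave 43 of 54446 rows, made up of 40 Hox rows for 39 Hox symbols (Hoxd4 occupies 2 rows) and the other three genes. Of the 4 samples, 2 had received siRNA to the long non-coding RNA LncMyoD and 2 had received control siRNA. Both groups were hindlimb cells of C57BL/6 mice, kept in F10 with 10% HS and collected at 48 h. Ages and sexes of the mice, and whether replicates were separate cultures or animals, were not given in the labels, so the p-values speak of the spread among these 4 samples alone, and that spread may be technical. For the control samples, too, the treatment text gives LncMyoD as target, so groups were taken from the other labels. With 0 rows named LncMyoD in the table, the level of the target itself was not analysed here.

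HOX proteins are homeodomain transcription factors encoded in 4 clusters, in which gene order follows the order of expression along the body from head to tail. Genes at the same relative place in different clusters form a paralog group, numbered from 1 at the anterior end to 13 at the posterior end. In limb buds the posterior groups of the Hoxa and Hoxd clusters pattern the axis from shoulder or hip to digits, and posterior Hoxc genes mark the hindlimb. Pitx1 and Tbx4 are the transcription factors of the hindlimb bud, and Tbx5 is that of the forelimb bud. Cells taken from adult tissues often keep part of the Hox pattern of their place of origin.

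Values are FPKM, a fragment number corrected for transcript length and library size, so levels can be compared between genes. From the steps in which low values occur, a level of 1 FPKM on a transcript of 1 kb rested on 36.6 to 41.1 reads of 150 nt per library, and the deepest library had 1.12 times the depth of the shallowest. The columns summed to between 317223 and 322496 FPKM. Of 8 markers of muscle stem cells and myoblasts, 7 were at 1 FPKM or more in every sample, led by Myog with 2793 to 4196 FPKM. The satellite cell factor Pax7 was lower, at 1.40 and 0.625 FPKM in knockdown and 1.02 and 0.859 FPKM in control. The Hox levels below are thus those of cultured cells with high Myog and low Pax7, and stem cells in muscle were not measured. Of 8 markers of fibro-adipogenic progenitors, which also carry limb Hox patterns, 2 were at 1 FPKM or more in every sample. These were the collagen genes Col3a1 and Col1a1, which set the summed level of 30.8 and 31.9 FPKM in knockdown and 27.4 and 29.2 FPKM in control. The defining markers Pdgfra, Dcn, Lum and Pi16 had means of 0.0400, 0.0416, 0.0505 and 0.0130 FPKM. The part of these cells in the Hox levels was not tested. The 5 endothelial markers summed to 5.77 to 8.18 FPKM, of which Eng made up 4.16 to 6.39 FPKM, and Kdr was listed at 0. The 5 macrophage markers summed to 1.66 to 3.14 FPKM, with Cd14 at 1.05 to 2.87 FPKM and Adgre1 and Ptprc listed at 0. The 4 Schwann cell markers summed to 0.0113 to 0.724 FPKM, with S100b listed at 0. The 6 smooth muscle and pericyte markers summed to 2577 to 3168 FPKM, nearly all of it Acta2, which myoblasts also express, and Kcnj8 was listed at 0.

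Among coding Hox genes, levels of 1 FPKM or more in every sample were found only in short central stretches of the Hoxa and Hoxc clusters. Of 43 rows, 5 were at 1 FPKM or more in all 4 samples, the level called on here, 21 were low and 17 were listed at 0 in every sample. The 5 were Hoxa7, Hoxa9, Hoxa10, Hoxc9 and Hoxc10. In the Hoxa cluster (chromosome 6, 52155590 to 52260880, minus strand, GRCm38) 3 of 11 genes were on, and in the Hoxc cluster (chromosome 15, 102921103 to 103036852, plus strand) 2 of 9. In the Hoxb cluster (chromosome 11, 96194316 to 96368256, plus strand) 0 of 10 were on and 8 were listed at 0. In the Hoxd cluster (chromosome 2, 74668310 to 74765142, plus strand) 0 of 10 rows were on and 7 were listed at 0. Nearest to the limit, Hoxa7 had 3.48 FPKM in its lowest sample, and Hoxc4, just outside, had 0.895 FPKM in its lowest. Across the clusters, paralog group 10 had the highest summed mean, 14.8 FPKM, followed by group 9 with 10.6 FPKM and group 7 with 6.74 FPKM.

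**Figure D1:**
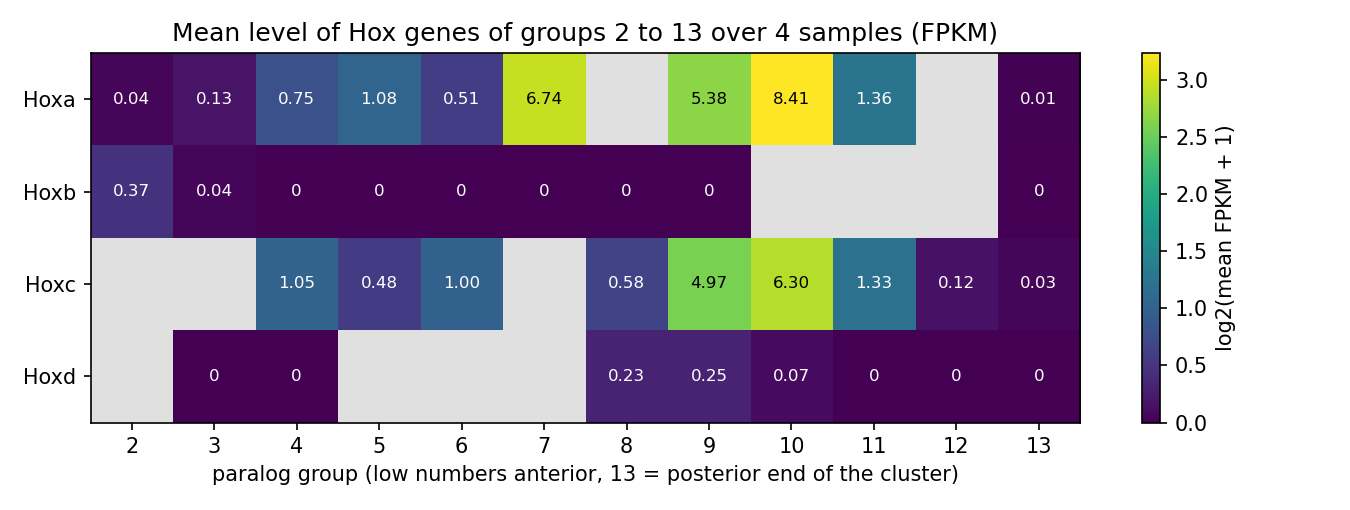
Mean FPKM over the 4 samples of the Hox genes of paralog groups 2 to 13, with clusters in rows and paralog groups in columns; colour is log2(mean FPKM + 1) and grey cells have no gene in the mouse. The bright cells are Hoxa7, Hoxa9, Hoxa10, Hoxc9 and Hoxc10, at 4.97 to 8.41 FPKM, and most cells of Hoxb and Hoxd are at 0.

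Hoxa10, a limb and posterior trunk gene, had the highest mean of all members. Its level was 8.24 and 10.1 FPKM in knockdown replicates 1 and 2 and 9.38 and 5.93 FPKM in control replicates 1 and 2. The groups overlapped, with control replicate 2 lowest. Hoxa10 (chromosome 6, 52231197 to 52240854) averaged 9.15 ± 1.29 FPKM in knockdown and 7.66 ± 2.44 FPKM in control (SD, n = 2 each), on roughly 594 to 1060 reads per library if the longest annotated transcript is taken. Its neighbour Hoxa9 (52223100 to 52231089), also a factor of blood stem cells, had 5.82 and 6.30 FPKM in knockdown and 4.67 and 4.75 FPKM in control, and both knockdown samples lay above both controls. Hoxa7 (52214491 to 52221854), a trunk gene, had 8.34 and 6.52 FPKM in knockdown and 8.63 and 3.48 FPKM in control. Its control samples stood further apart than its groups. Hoxa7 rested on roughly 276 to 686 reads per library.

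In the Hoxc cluster, Hoxc10 (chromosome 15, 102966796 to 102971893), which in mouse and chick embryos is expressed in the hindlimb and lumbar region, was the highest. It had 6.99 and 7.86 FPKM in knockdown and 5.07 and 5.30 FPKM in control, and the groups did not overlap. Hoxc9 (102976439 to 102985099), a gene of the thoracic trunk, had 4.95 and 5.91 FPKM in knockdown and 5.21 and 3.80 FPKM in control, and the groups overlapped.

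The stretches had sharp edges. The 3 Hoxa genes that were on lie side by side in 26.4 kb, and the 2 Hoxc genes in 18.3 kb. On the posterior side the next genes were low: Hoxa11, which patterns the forearm and lower leg, had 0.0826 and 1.59 FPKM in knockdown and 1.48 and 2.29 FPKM in control. Hoxc11, a hindlimb gene of mouse embryos, had 0.541 and 2.01 FPKM in knockdown and 1.02 and 1.74 FPKM in control. Both were lowest in knockdown replicate 1. The most posterior genes, which pattern hand and foot or skin and hair, were near 0, with means of 0.0139 FPKM for Hoxa13, 0.119 FPKM for Hoxc12 and 0.0302 FPKM for Hoxc13.

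On the anterior side Hoxa6 had 0.775 and 0.780 FPKM in knockdown and 0.114 and 0.36 FPKM in control, on about 25 and 28 reads in knockdown and 4 and 12 in control. Hoxc8 had 1.00 and 0.291 FPKM in knockdown and 0.371 and 0.664 FPKM in control. Further along, the trunk genes Hoxa4 and Hoxa5 had means of 0.748 and 1.08 FPKM, and Hoxc4, Hoxc5 and Hoxc6 had 1.05, 0.476 and 1.00 FPKM. Hoxa2 and Hoxa3, genes of the hindbrain and neck, had means of 0.0426 and 0.126 FPKM. An exon of Hoxc5 is shared with Hoxc10, so reads there could be given to either row.

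**Figure D2:**
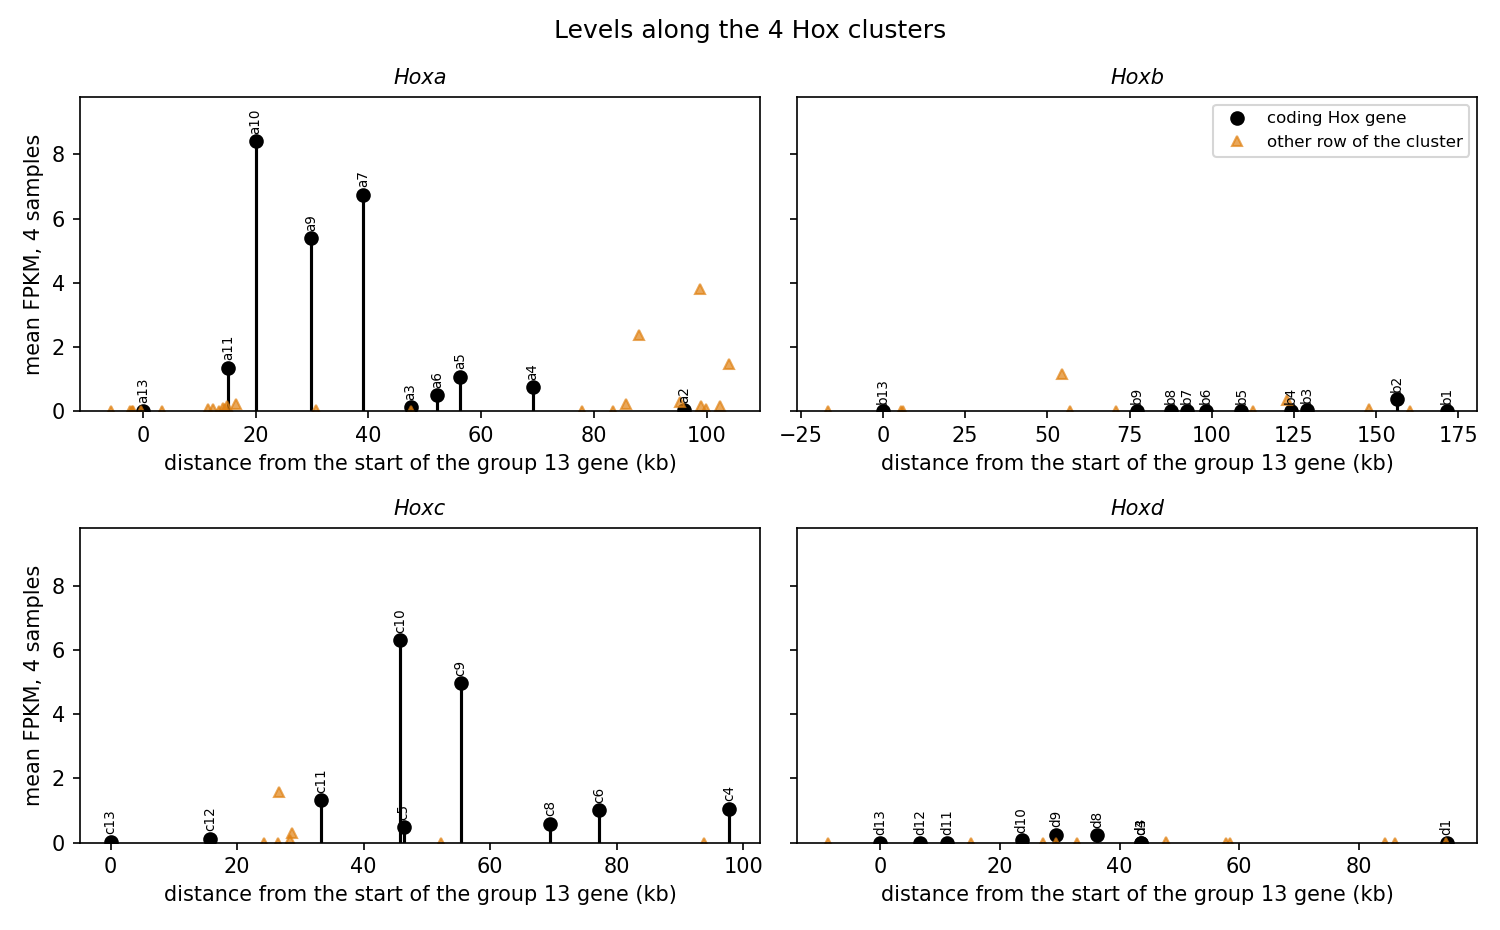
Mean FPKM over the 4 samples along each Hox cluster, against distance in kb from the start of the group 13 gene; black points are coding Hox genes and triangles are other rows of the cluster. Levels above 4 FPKM occur only from Hoxa10 to Hoxa7 and at Hoxc10 and Hoxc9, and no row of Hoxd reaches 1 FPKM.

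Hoxb and Hoxd were nearly silent. The highest Hoxb gene was Hoxb2, a hindbrain gene, at 0.561 and 0.289 FPKM in knockdown and 0.410 and 0.226 FPKM in control. Hoxb3 was the other Hoxb gene above 0, with 0.0336 and 0.142 FPKM in knockdown and 0 in both controls. In Hoxd the limb genes Hoxd9 and Hoxd8 had means of 0.250 and 0.234 FPKM, and Hoxd10 had 0.271 FPKM in control replicate 1 and 0 elsewhere. Hoxd11, Hoxd12 and Hoxd13, which with their Hoxa counterparts pattern forearm and digits, were listed at 0. The Hoxa cluster held 60.0% and 59.3% of the summed Hox level in knockdown cells, against 67.6% and 55.5% in control. Hoxc held 37.8% and 38.1% in knockdown and 30.8% and 42.1% in control. Hoxb and Hoxd each held 0.668% to 1.86% of it.

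Of the limb identity factors, only Tbx4 had a value above 0. Pitx1 (chromosome 13, 55825051 to 55836192, minus strand) was listed at 0 in all 4 samples, and so was the forelimb factor Tbx5. At this depth 3 reads on the longest transcript correspond to about 0.0334 FPKM for Pitx1 and 0.0208 FPKM for Tbx5, a limit that covers counting error only. Tbx4 had 0.558 and 1.32 FPKM in knockdown and 0.607 and 0.850 FPKM in control, a mean of 0.833 FPKM just under the limit of 1 FPKM for testing. The antisense row Gm47071, which overlaps an exon of Pitx1, had 0.721 and 0.611 FPKM in knockdown and 0.481 and 0.154 FPKM in control. A value of 0 in this table can also be a failed estimate. Gapdh, a glycolytic gene that every cell uses, stood at 9.50 to 11.98 FPKM, above 0 in every sample. Of 76 coding ribosomal protein rows 1, Rpl10l, was listed at 0 throughout. Whether the 0 of Pitx1 is a failed estimate was not tested.

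Promoter sequence was available from RefSeq (GRCm38.p6) for 23 of the members, as 25 windows from 250 bases before to 50 after a start. The 4 windows, chosen after their values were seen, are shown to set their CG dinucleotides side by side, with each CG in capitals. Hoxa10 (chr6:52240805-52241104, minus strand, on) and Hoxb8 (chr11:96281655-96281954, plus strand, listed at 0) have 12 and 13 CG. Hoxa9 (chr6:52227321-52227620, minus strand, on) and Hoxd13 (chr2:74667975-74668274, plus strand, listed at 0) have 4 and 37.
Hoxa10: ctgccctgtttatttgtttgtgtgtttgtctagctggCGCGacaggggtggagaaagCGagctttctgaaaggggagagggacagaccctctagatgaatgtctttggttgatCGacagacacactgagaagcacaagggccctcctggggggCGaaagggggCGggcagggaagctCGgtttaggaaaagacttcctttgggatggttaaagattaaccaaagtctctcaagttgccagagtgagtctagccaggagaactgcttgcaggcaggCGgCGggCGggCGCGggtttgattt
Hoxb8: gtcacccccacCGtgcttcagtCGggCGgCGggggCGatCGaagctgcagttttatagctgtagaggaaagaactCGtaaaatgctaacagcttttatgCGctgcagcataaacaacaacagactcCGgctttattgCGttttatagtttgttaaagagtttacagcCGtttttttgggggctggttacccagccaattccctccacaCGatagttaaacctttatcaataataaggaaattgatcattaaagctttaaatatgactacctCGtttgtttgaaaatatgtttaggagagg
Hoxa9: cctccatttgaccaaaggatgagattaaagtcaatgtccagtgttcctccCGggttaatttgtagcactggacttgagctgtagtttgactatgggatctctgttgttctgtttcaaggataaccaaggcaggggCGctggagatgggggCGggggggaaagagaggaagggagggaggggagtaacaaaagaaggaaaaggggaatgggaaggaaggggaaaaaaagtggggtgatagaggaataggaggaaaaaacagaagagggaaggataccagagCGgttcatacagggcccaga
Hoxd13: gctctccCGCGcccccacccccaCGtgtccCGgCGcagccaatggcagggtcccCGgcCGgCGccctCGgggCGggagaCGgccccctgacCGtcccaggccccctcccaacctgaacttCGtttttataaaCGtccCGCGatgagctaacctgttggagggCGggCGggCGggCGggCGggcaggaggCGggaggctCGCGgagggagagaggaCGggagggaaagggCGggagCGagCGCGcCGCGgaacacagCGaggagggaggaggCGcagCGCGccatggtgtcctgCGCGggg

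The number of CG in the promoter window did not separate the classes. The 4 windows of 3 genes that were on had a median of 10.5 CG with a range of 4 to 21, the 11 windows of low genes 20 with a range of 6 to 45, and the 10 windows of genes listed at 0 had 13.5 with a range of 4 to 37. The median over all 32851 windows was 7. The letters CAGCTG, an E box of the kind MYOD1 binds, were in 5 of the 25 windows (20%, against 16.3% of all windows), all 5 of low genes. The composite HOX-PBX letters TGATTNAT were in 2 (8%, against 3.22%) and the MEIS letters TGACAG in 2 (8%, against 19.2%), each searched on both strands. A match is a description of letters and not a binding site.

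The clusters also carry microRNA genes, which lie beside the stretches that are on as well as beside silent genes. Mir196b lies inside the Hoxa9 row (chr6:52230129-52230150 for the mature arm), Mir196a-2 lies between Hoxc10 and Hoxc9 (chr15:102973365-102973386), and Mir196a-1 lies upstream of Hoxb9 (chr11:96265187-96265208). The miR-196 family is known to target Hoxb8. Mature sequences from RefSeq are shown for the miR-196 arms that differ between clusters, with the seed, bases 2 to 8, in capitals.
miR-196a-5p: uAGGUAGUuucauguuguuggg
miR-196b-5p: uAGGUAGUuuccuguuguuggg
The 2 share their seed and differ by A12C, with miR-196a first and positions counted from the 5′ end. Polyadenylated RNA does not measure mature microRNAs, and the miR-196 precursor rows were at or near 0. Mir196b had 0.0699 and 0.0406 FPKM in knockdown and 0 and 0.0824 FPKM in control, on about 0 reads in every library. Mir196a-1 and Mir196a-2 were listed at 0. For these rows of 85 to 102 nt, 3 reads correspond to 0.803 to 0.963 FPKM, so low values cannot show absence.

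The comparison of knockdown with control asked whether any member differed. The test took genes whose 4 samples averaged 1 FPKM or more, which 11 of 43 members did. A member could pass through its higher group alone. Hoxc6 (mean 1.00 FPKM) was just inside and Tbx4 just outside. With means of 1.43 FPKM in knockdown and 0.576 FPKM in control, Hoxc6 passed only through its knockdown samples. Its place in the counts below rests on that. Hoxa11, with 0.839 FPKM in knockdown and 1.89 FPKM in control, passed only through its control samples. By limma on log2(FPKM + 1), with p-values adjusted by the Benjamini-Hochberg method over all 10900 genes tested, 0 members were called higher, against 0.00917% of all genes, and 0 were called lower, against 0.0459%. The lowest adjusted p was 0.692. At an unadjusted p under 0.05 there were 2 members higher, Hoxc10 and Hoxc6, against 4.39% of all genes, and 0 lower, against 2.7%. Both knockdown samples lay above both controls for 3 members, Hoxa9, Hoxc6 and Hoxc10, against 22.1% of all genes, and below for 0, against 16.3%. These 3 of 11 are close to the share of all genes. With quantile normalization 0 members passed the unadjusted limit. Without knockdown replicate 2 the log2 fold changes of Hoxc10 and Hoxc6 were 0.37 and 0.42. Without control replicate 1 those of Hoxc10 and Hoxc6 were 0.42 and 0.61, and that of Hoxa7 was 0.90. Leaving out control replicate 2 gave Hoxa7 -0.20. Such fits leave 1 sample in a group and cannot settle whether a gene differs.

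Hoxc10 averaged 7.43 ± 0.608 FPKM in knockdown and 5.18 ± 0.163 FPKM in control (SD, n = 2 each), which is 1.43 times the control mean. Its log2 fold change was 0.44 ± 0.17 (SE, 95% interval 0.03 to 0.86), with a limma adjusted p of 0.692. Hoxc6, a trunk gene, had 1.10 and 1.75 FPKM in knockdown and 0.573 and 0.579 FPKM in control, with no overlap. Its log2 fold change was 0.61 ± 0.24 (SE, 95% interval 0.02 to 1.20), with the same limma adjusted p. Hoxc6 rested on roughly 35 and 36 reads in the control libraries, and its value was 0.42 without knockdown replicate 2. Hoxa9 had 0.31 with a 95% interval of -0.12 to 0.73. For Hoxa10, Hoxa7 and Hoxc9 the values were 0.25, 0.35 and 0.23, and those of Hoxa10 and Hoxa7 changed sign to -0.038 and -0.20 without control replicate 2. The intervals of these 4 genes include differences in either direction, so neither a change nor its absence was shown.

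**Figure D3:**
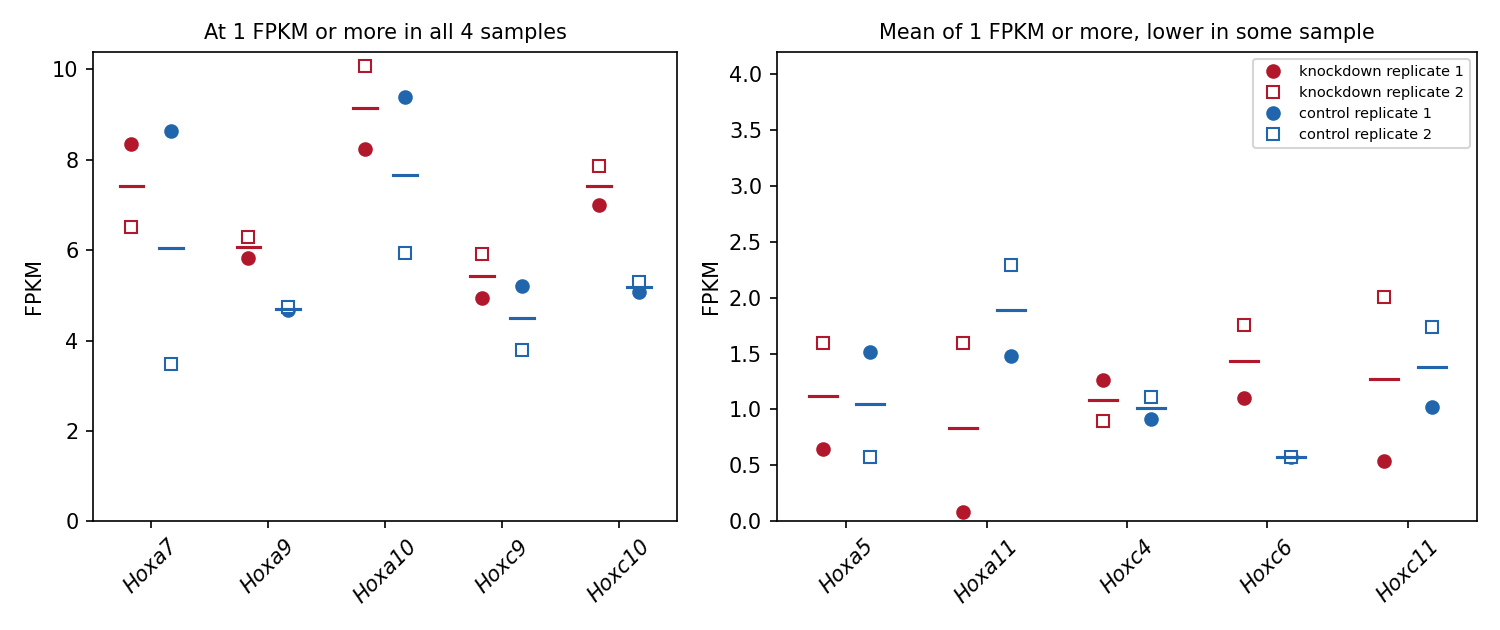
FPKM of 10 tested Hox genes in each sample, knockdown in red and control in blue, with replicate 1 as filled circles, replicate 2 as open squares and lines at the means of 2 samples. Knockdown and control points separate for Hoxa9, Hoxc10 and Hoxc6. For every other gene shown they overlap, and replicates of at least 1 group stand further apart than the group means.

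Among the genes around the limit, Hoxa5, a gene of the neck and lung, varied more between replicates than between groups. It had 0.645 and 1.60 FPKM in knockdown and 1.52 and 0.579 FPKM in control, so that knockdown replicate 2 and control replicate 1 were high. Its log2 fold change was 0.05 with a limma adjusted p of 0.986. Hoxa11 had the most negative log2 fold change, -0.77 ± 0.44 (SE), with a limma adjusted p of 0.747. That value rests on knockdown replicate 1, where Hoxa11 had about 7 reads: without that library it was -0.14, and without knockdown replicate 2 it was -1.40. Hoxc11 and Hoxc4 had -0.13 and 0.04. Over the 11 members the median difference between replicates on the log2(FPKM + 1) scale was 0.31 in knockdown and 0.41 in control, against 0.26 and 0.21 over the 6373 tested genes with means of 1 to 10 FPKM.

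Most tested members had a positive value, with 9 positive and 2 negative and a median log2 fold change of 0.23, beside 0.03 over all genes tested. Leaving out knockdown replicate 1 gave a median of 0.36 and leaving out knockdown replicate 2 gave 0.12. Leaving out control replicate 1 gave 0.42, and leaving out control replicate 2 gave 0.05. Knockdown replicate 2 was the highest of the 4 samples for 8 of the 11 members. With quantile normalization 6 were positive and 5 negative, with a median of 0.17. The members share a few chromosomal stretches and are not independent of each other.

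Summed over all coding genes of a cluster, Hoxa stood at 26.1 and 30.6 FPKM in knockdown and 29.3 and 18.4 FPKM in control, a log2 ratio of the means of 0.25, which was -0.046 without control replicate 2. Hoxc stood at 16.4 and 19.6 FPKM in knockdown and 13.3 and 13.99 FPKM in control, a log2 ratio of 0.40 with no overlap between the groups. It was 0.27 without knockdown replicate 2 and 0.52 without knockdown replicate 1. Hoxb and Hoxd summed to under 1 FPKM in every sample, and Hoxd changed sign without knockdown replicate 2. The sums have no test.

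**Figure D4:**
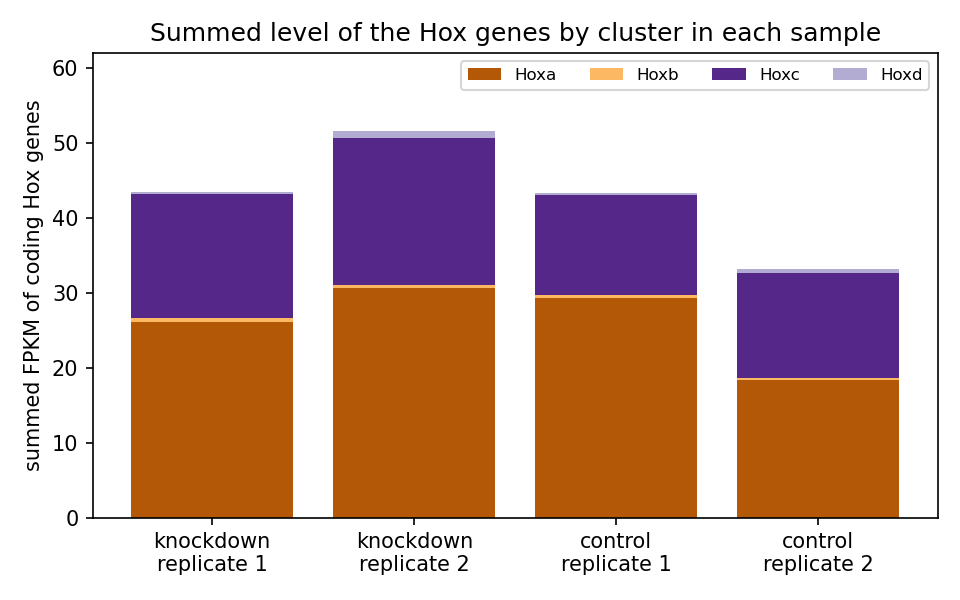
Summed FPKM of the coding Hox genes in each sample, stacked by cluster, with the 2 knockdown samples left of the 2 control samples. Hoxa and Hoxc make up nearly all of each bar; control replicate 2 has the lowest bar, with 18.4 FPKM of Hoxa.

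HOX proteins bind DNA with partners of the TALE family, encoded by the Pbx, Meis and Pknox genes. Of 9 partner genes, 3 were on and tested: Pknox2, Pknox1 and Meis3. By limma 0 were called higher and 0 lower. Pknox1 had 11.3 and 11.1 FPKM in knockdown and 16.6 and 13.2 FPKM in control, with no overlap, a log2 fold change of -0.37 (95% interval -0.77 to 0.02) and a limma adjusted p of 0.698. Pknox2 had 14.2 and 16.5 FPKM in knockdown and 14.02 and 13.4 FPKM in control, also with no overlap. Its log2 fold change was 0.14. Meis3 had 2.90 and 3.15 FPKM in knockdown and 1.92 and 3.77 FPKM in control, with overlap and a log2 fold change of 0.11. Of the 3 tested partners 1 was thus higher without overlap, against 22.1% of all genes, and 1 was lower, against 16.3%. So few genes cannot be told from those shares. Among the classical partners, Pbx2, Meis1 and Meis2 were low, with means of 0.318, 0.400 and 0.199 FPKM.

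Of 24 limb patterning genes, 8 were on and tested and 6 were listed at 0, among them the signals Shh and Fgf10 of the limb bud. By limma 0 were called in either direction. Pitx3, a homeodomain factor of muscle and a relative of Pitx1, had 8.82 and 12.4 FPKM in knockdown and 10.3 and 11.9 FPKM in control, and Lbx1, a factor of muscle precursors that migrate into limbs, had 4.62 and 5.32 FPKM in knockdown and 5.06 and 6.15 FPKM in control. Pitx3 was thus above 8 FPKM in every sample, while Pitx1 was listed at 0. Prrx1, a factor of limb mesenchyme, had 3.90 and 3.26 FPKM in knockdown and 2.50 and 2.76 FPKM in control, with no overlap, a log2 fold change of 0.33 and a limma adjusted p of 0.763. Gli3, an effector of hedgehog signalling, had 0.23, which was -0.021 without knockdown replicate 2.

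The windows of the clusters, with 20 kb on either side, held 53 other rows, mostly non-coding, of which 5 were tested, 29 were listed at 0 and by limma 0 were called. Hotair, a long non-coding RNA transcribed opposite to the Hoxc genes between Hoxc12 and Hoxc11, had 1.32 and 3.06 FPKM in knockdown and 1.06 and 0.869 FPKM in control. The groups did not overlap, and knockdown replicate 2 stood far above the others. Its log2 fold change was 0.65 ± 0.31 (SE) with a limma adjusted p of 0.714, and without knockdown replicate 2 it was 0.25. Hotairm1, an antisense row at the anterior end of the Hoxa cluster, had 1.44 and 1.13 FPKM in knockdown and 1.85 and 1.49 FPKM in control, with no overlap and a log2 fold change of -0.23. Gm15050, an antisense row of the Hoxa cluster, had 1.11 and 3.50 FPKM in knockdown and 2.93 and 1.91 FPKM in control, and Gm27477, a short row beside Hotairm1, had 3.56 and 3.45 FPKM in knockdown and 4.58 and 3.61 FPKM in control. Knockdown samples lay below both controls for Gm27477 too, but narrowly, with knockdown replicate 1 at 3.56 FPKM and control replicate 2 at 3.61 FPKM. Gm27477 is 143 nt long, shorter than a read. It rested on about 19 and 20 reads in knockdown and 26 and 20 in control. Those reads do not resolve its separation, and its place in the next count rests on that. Of the 5 tested rows 1 was thus higher without overlap, against 22.1% of all genes, and 2 were lower, against 16.3%. So few rows cannot be told from those shares. Hotair, with a control mean of 0.963 FPKM, passed the filter only through its knockdown samples. Hottip, which lies beyond Hoxa13, was listed at 0, as was Hoxa13 in 3 of the 4 samples. Whether counting used strand is unknown here, so reads of a Hox gene and of an overlapping antisense row cannot be told apart.

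**Figure D5:**
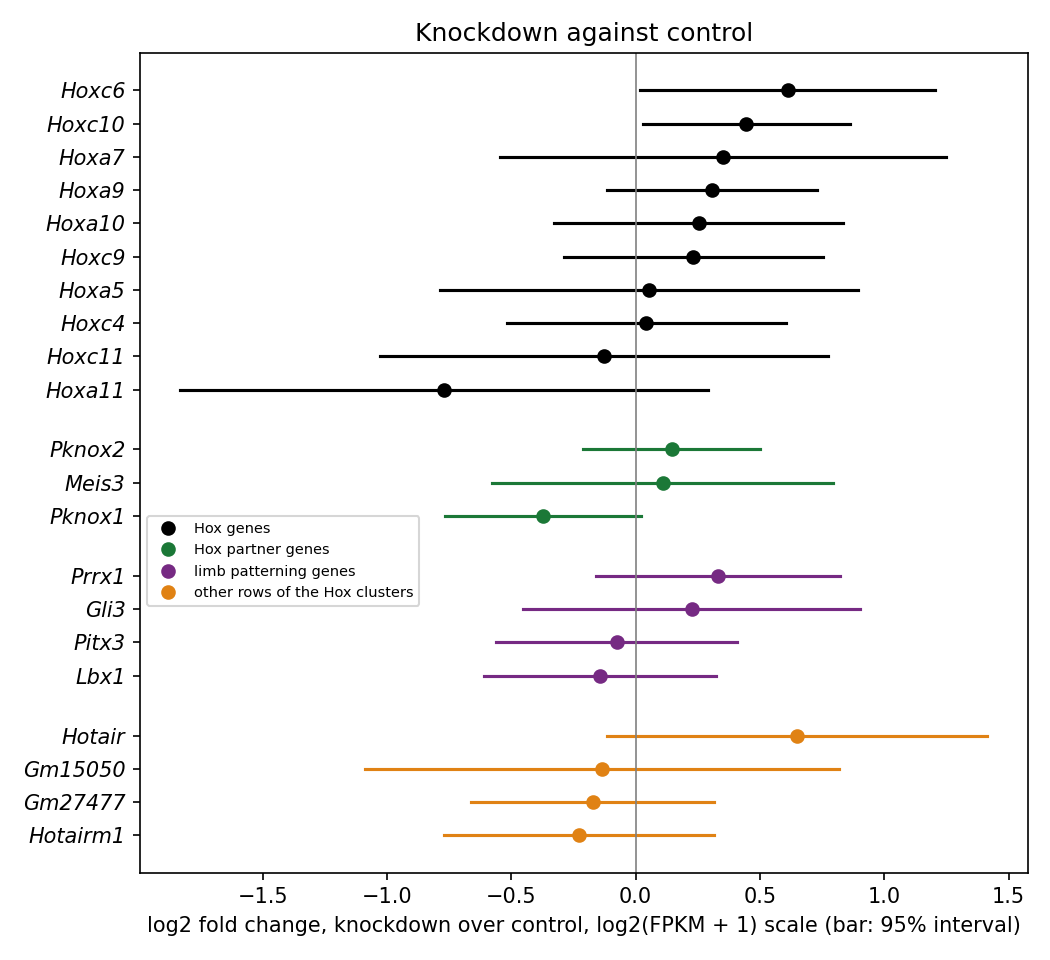
Log2 fold change of knockdown over control on the log2(FPKM + 1) scale for 10 tested Hox genes and the named partner, limb patterning and other cluster rows; bars are 95% intervals from limma. The bars of Hoxc6 and Hoxc10 lie just above 0 and all others cross it, and the lowest adjusted p of the Hox genes is 0.692.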

How the data were processed

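Polyadenylated RNA of 4 samples was sequenced after SMART-Seq v4 amplification and Ovation Ultralow library preparation, per the labels' protocols. The submitters' processing notes list StringTie 1.3.3, HISAT2 2.1.0, SAMtools 1.3, Trimmomatic 0.36, bcl2fastq 2.19 and the mm10 build, without roles. The authors deposited 1 FPKM value for each gene in each sample. The sources used here give neither annotation release nor strand setting. Coordinates and transcript lengths came from GENCODE M21 (GRCm38), which held 42 of the 43 member rows; a second Hoxd4 row was not in it. Reads behind a value were estimated from the step of FPKM times length in genes with 1 exon and 1 transcript, where 87.0% to 88.0% of values were whole multiples within a tolerance of 0.1, against 20% by chance; for other genes reads are approximate and assume the longest transcript.

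The test was limma 3.58.1 (R 4.3.3) with its trend option, two-sided, on log2(FPKM + 1), for genes averaging 1 FPKM or more, at an adjusted p threshold of 0.05. This scale understates fold changes of low genes. The procedure was tested on simulated data. Python 3.11.15 was used for summaries. Members, lists and tests were chosen with earlier results of these data known. The naming rule took Hox genes that are on, the low members with the highest mean in each cluster, the limb factors, and from each other list the 3 rows with the lowest p and the 3 with the highest mean; other genes named were chosen after their values were seen. A few genes that the rule covers are not reported here. Alternatives were scalings, pseudocount, filter, trend, replicate block, summed overlapping rows and leaving out each sample.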

Additional observations from a re-analysis of the deposited data

How the results depend on the processing

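No Hox, partner, limb patterning or other cluster row passed the adjusted threshold under any alternative run. Same-numbered samples showed little shared deviation from their group means (correlation -0.02), which cannot show whether they were paired by culture or animal. With a replicate block 3 genes of the whole table passed, against 6 without it. In that fit 1 member, Hoxa11 with -0.77, was lower at an unadjusted p under 0.05 and none was higher. Over all genes 0 passed with no filter on low values, and 5 to 15 when 1 sample was left out. Members at an unadjusted p under 0.05 numbered 0 with quantile normalization, against 2 in the test above. They numbered 1 with a pseudocount of 0.1 FPKM and 1 with a filter at a mean of 5 FPKM. With no filter on low values they numbered 3 of 26, all higher. The cause was not tested. Rows on were 11 at 0.5 FPKM in every sample, 2 at 5 FPKM and 11 by a mean of at least 1 FPKM, against 5.

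The log2 ratio of the summed cluster ran from -0.046 to 0.62 for Hoxa, from 0.325 to 1.18 for Hoxb, from 0.27 to 0.52 for Hoxc and from -0.22 to 1.20 for Hoxd when 1 sample was left out, and that of Hoxb was -0.50 with all rows of the cluster. Of 21 named genes, 11 kept their direction under every alternative. With quantile normalization Hoxa5 was -0.021 and Hoxc4 -0.024, and summed with overlapping rows Hotairm1 was 0.016. Leaving out 1 sample gave ranges of -0.28 to 0.39 for Hoxa5, -0.20 to 0.90 for Hoxa7, -0.038 to 0.54 for Hoxa10, -0.61 to 0.35 for Hoxc11, -0.087 to 0.17 for Hoxc4, -0.25 to 0.46 for Meis3, -0.021 to 0.47 for Gli3, -0.30 to 0.15 for Pitx3 and -0.68 to 0.41 for Gm15050. With 2 samples per group, the interval of Hoxc10, the narrowest among the tested Hox genes, ran from 0.03 to 0.86.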
